A study of Saccharomyces cerevisiae with 7 samples.

Results

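The genes described here encode the proteins of the cytosolic ribosome of budding yeast (Saccharomyces cerevisiae). They were chosen by standard gene name alone, as every measured row named for a large subunit protein (RPL), a small subunit protein (RPS) or a protein of the ribosomal P-stalk (RPP0, RPP1A, RPP1B, RPP2A and RPP2B). The rule gave 128 genes of 5666 with values, 73 of the large subunit, P-stalk included, and 55 of the small subunit. Another 5 genes of these names, RPL12B, RPL25, RPL31B, RPL43B and RPS10B, had a row without values, and RPL22B, RPL29, RPL36B and RPL41B were not analysed here.

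Messenger RNA was taken from cultures in meiosis at 1, 2, 3, 4, 5, 6 and 8 h and hybridised on 2-colour microarrays beside a pool of meiotic mRNA that served every array. Values are log2 ratios to 0 h, the pool cancelling out, so that 0 is the 0 h level and -1 is a level 2-fold lower. The design names 3 independent cultures, but there is 1 column of values per time point. A difference between any pair of time points therefore has no replicate check, and no error can be given. The sources used here do not give the strain, its genotype or the medium. The landmark genes of meiosis were high: IME1, the activator of entry into meiosis, was already at 2.22 at 1 h, and NDT80, the activator of the middle genes, was at 6.90 at 5 h. A lower value can come from less of a transcript in every cell, from fewer cells that hold it, or from a smaller share of all mRNA. These cannot be told apart.

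A ribosome holds a small subunit, which binds mRNA and decodes it, and a large subunit, which joins amino acids and carries the exit tunnel. Both are built from ribosomal RNA and many proteins, most of them needed in equal numbers. After an ancient genome duplication most of these proteins in yeast kept a pair of genes, named A and B, and in growing cells their transcripts are among the most abundant. They are transcribed together through the factors Rap1, Fhl1 and Ifh1, and transcription falls when nutrients run out.

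Ribosomal protein transcripts stood below their 0 h level at all 7 time points, lowest at 1 h, partly back by 3 h, low once more at 5 h and nearer to it again by 8 h. The median log2 ratio of the 128 genes at 1, 2, 3, 4, 5, 6 and 8 h was -2.29, -1.37, -0.93, -1.19, -1.70, -1.59 and -0.865. As a fold, the median lay 4.89-fold below the 0 h level at 1 h, 1.91-fold below it at 3 h, 3.25-fold below it at 5 h and 1.82-fold below it at 8 h. Over all 5666 genes the median lay between -0.04 and 0.01 at every time point.

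**Figure D1:**
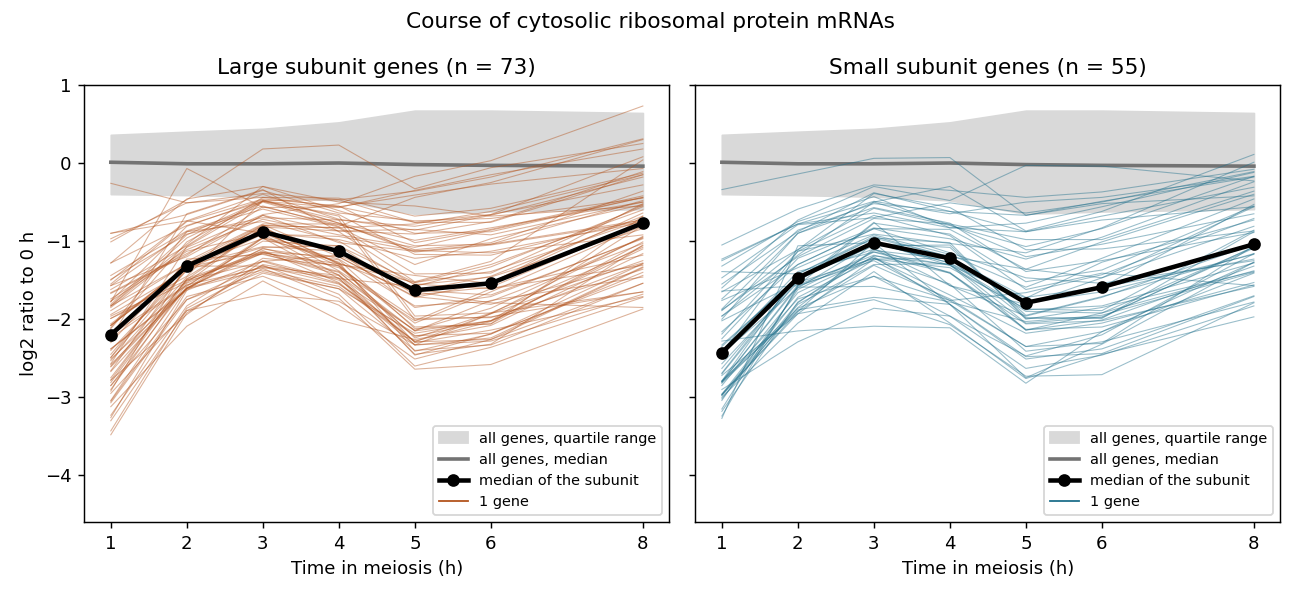
log2 ratio to 0 h against time for the 73 large subunit genes (left) and the 55 small subunit genes (right), 1 thin line per gene, with the median of each subunit in black and the median and quartile range of all 5666 genes in grey. Both medians are lowest at 1 h (-2.20 large, -2.43 small), return to -0.88 and -1.02 at 3 h, and are low again at 5 h (-1.63 and -1.79).

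A gene counted as repressed when 2 or more neighbouring time points were at -1 or less, which is a rule of size with no test behind it. Of the 128 genes 106 (82.8%) were repressed, beside 16.4% of all genes. The mirror rule for induction, 2 or more neighbouring time points at 1 or more, was met by 0 of the 128 and by 21.8% of all genes. At 1 h, 123 of the 128 were at -1 or less, beside 10.3% of all genes. The count was 99 at 2 h (7.92% of all genes), 57 at 3 h (8.1% of all genes) and 78 at 4 h (9.76% of all genes). It was 99 again at 5 h (15.4% of all genes), 93 at 6 h (14.3% of all genes) and 56 at 8 h (12.8% of all genes). All 7 values were at -1 or less in 40 ribosomal protein genes, 16 of the large and 24 of the small subunit, beside 2.72% of all genes. All 7 were below 0 in 118, beside 25.3% of all genes. The highest value of any of these genes at any time was 0.73, for RPL19B at 8 h.

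The 1 h low was shared by nearly the whole set. The lowest of a gene's 7 values fell at 1 h in 118 of the 128 genes, beside 27.7% of all genes, and 126 were higher at 2 h than at 1 h, beside 51.8% of all genes. The highest of the 7 values fell at 8 h in 72 genes, beside 22.9% of all genes, and at 3 h in 52, beside 10.1% of all genes. The deepest large subunit values at 1 h belonged to RPL2A (-3.48), whose protein lies close to the peptidyl transferase centre, RPL27A (-3.43), RPL24A (-3.30), of a protein at the subunit interface, and RPL3 (-3.26), which also reaches toward the peptidyl transferase centre. In the small subunit they belonged to RPS12 (-3.27), RPS16B (-3.24), RPS8B (-3.18) and RPS6A (-3.15). RPS6A encodes 1 of the copies of the protein phosphorylated in response to growth signals.

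At the other end, RPL32 was at -0.26, -0.51, -0.44, -0.56, -0.41, -0.27 and -0.07 over the 7 time points, a flat course with neither low. RPS9B was at -0.34, 0.06, -0.67 and -0.18 at 1, 3, 5 and 8 h. The next highest at 1 h were RPL40B (-0.90), RPL41A (-0.90) and RPL36A (-0.97) in the large subunit, and RPS30A (-1.05), RPS13 (-1.23) and RPS30B (-1.25) in the small subunit. RPL40A and RPL40B encode a fusion of ubiquitin to the ribosomal protein, so their transcripts also supply ubiquitin. RPS31, the small subunit gene of this kind, was lower, at -1.96 at 1 h and -1.47 at 5 h, and was repressed.

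The 5 h low, taken as a 5 h value below both the 3 h and the 8 h value, was seen in 118 of the 128 genes, beside 27.3% of all genes. The median of 5 h minus 3 h was -0.725, with 120 of the 128 genes lower at 5 h than at 3 h, beside 56.2% of all genes, and 28 lower by 2-fold or more, beside 5.38% of all genes. From 4 h alone, 117 of the 128 were lower at 5 h, beside 57.7% of all genes. The size of this low depends on the scale of the columns. All ratios were more widely spread at 5 h, where the median absolute deviation over all genes was 0.66, than at 3 h, where it was 0.43. With every column scaled to one spread, the median of 5 h minus 3 h over the ribosomal protein genes was -0.17, and 88 of the 128 had the low, beside 23.0% of all genes. By rank within the column, a setting added once the values were known, the median ribosomal protein gene stood at percentiles 2.62, 9.15, 5.34 and 16.4 at 1, 3, 5 and 8 h, and 96 of the 128 had the low, beside 23.3% of all genes.

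**Figure D2:**
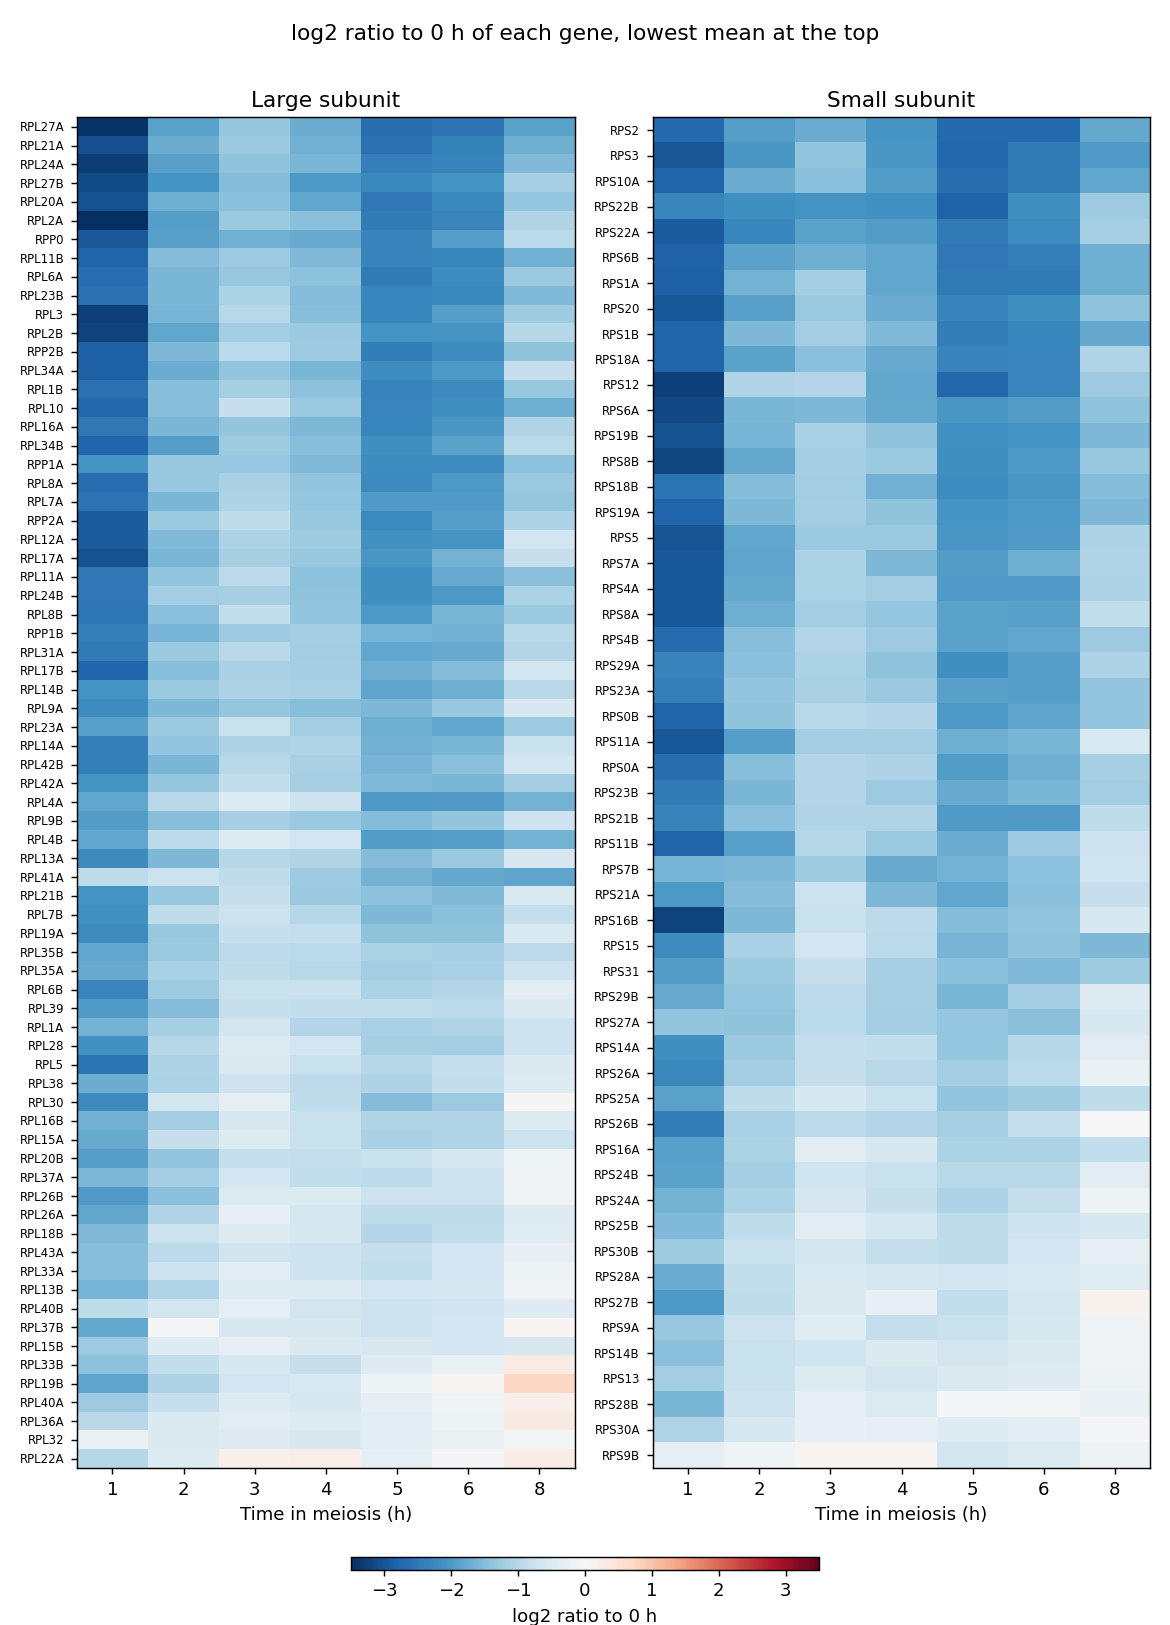
log2 ratio to 0 h of 125 of the 128 ribosomal protein genes (rows, lowest mean at the top) at each time point (columns), large subunit left and small subunit right, blue for values below 0 h and red for values above it. Most rows are darkest at 1 h and again at 5 and 6 h, while the bottom rows, such as RPL32, RPL36A and RPL22A in the large subunit and RPS9B and RPS30A in the small subunit, stay pale.

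The 5 h values of the large subunit were lowest for RPL27A (-2.64), RPL21A (-2.60), RPL20A (-2.51) and RPL6A (-2.46). Those of the small subunit were lowest for RPS22B (-2.82), RPS3 (-2.76), of the mRNA entry channel, RPS12 (-2.75) and RPS2 (-2.73), a protein tied to decoding accuracy. RPS12 had the largest difference of 5 h minus 3 h: its values were -3.27, -1.06, -1.02, -1.81, -2.75, -2.32 and -1.27 from 1 h to 8 h. It stood 6.73-fold below the 0 h level at 5 h and 9.65-fold below it at 1 h, with the 2 and 3 h values well above both. At the other end of the 5 h values stood RPL19B (-0.17), RPL22A (-0.33), RPL40A (-0.35) and RPL36A (-0.36) in the large subunit, and RPS28B (-0.03), RPS30A (-0.44), RPS13 (-0.50) and RPS14B (-0.64) in the small subunit.

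RPL4A and RPL4B, for a protein of the exit tunnel, had the next largest differences. RPL4A was at -1.83, -0.96, -0.49, -0.73, -2.01, -1.97 and -1.65, and RPL4B at -1.81, -0.92, -0.48, -0.68, -1.96, -1.92 and -1.65 at the 7 time points. Here the 5 h value lay below the 1 h value, and the 8 h value stayed low. RPL10 followed, at -2.75, -0.82, -2.30 and -1.71 at 1, 3, 5 and 8 h. Its protein is among the last to join the large subunit.

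In most genes the 5 h low was shallower than the 1 h low. The median of 5 h minus 1 h, in which the division by 0 h cancels, was 0.64, and it was 1.85 with every column scaled to one spread. As deposited, 119 of the 128 genes were higher at 5 h than at 1 h, beside 51.6% of all genes. The largest such difference was 1.72, for RPS16B (-1.52 at 5 h, against -3.24 at 1 h). The other 9 genes were lower at 5 h: RPL4A, RPL4B, RPL41A, RPL32, RPP1A, RPS2, RPS7B, RPS9B and RPS22B. The lowest of the 7 values fell at 5 h in 6 of the 128, beside 14.3% of all genes.

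The genes with a larger step out of the 1 h low tended to have a larger step into the 5 h low. Across the 128 genes, 2 h minus 1 h and 5 h minus 4 h, which share no column, had a Pearson correlation of -0.575 and a Spearman correlation of -0.644. The Pearson correlation was -0.632 in the 73 large subunit genes and -0.494 in the 55 small subunit genes, and -0.034 over all 5666 genes. These are descriptions across genes, which are not independent replicates and include near-identical copies. RPL5, whose protein binds the 5S ribosomal RNA, departed from this pattern. It was at -2.57, -1.07, -0.77 and -0.99 at 1, 2, 4 and 5 h, a large return with little of the 5 h low.

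**Figure D3:**
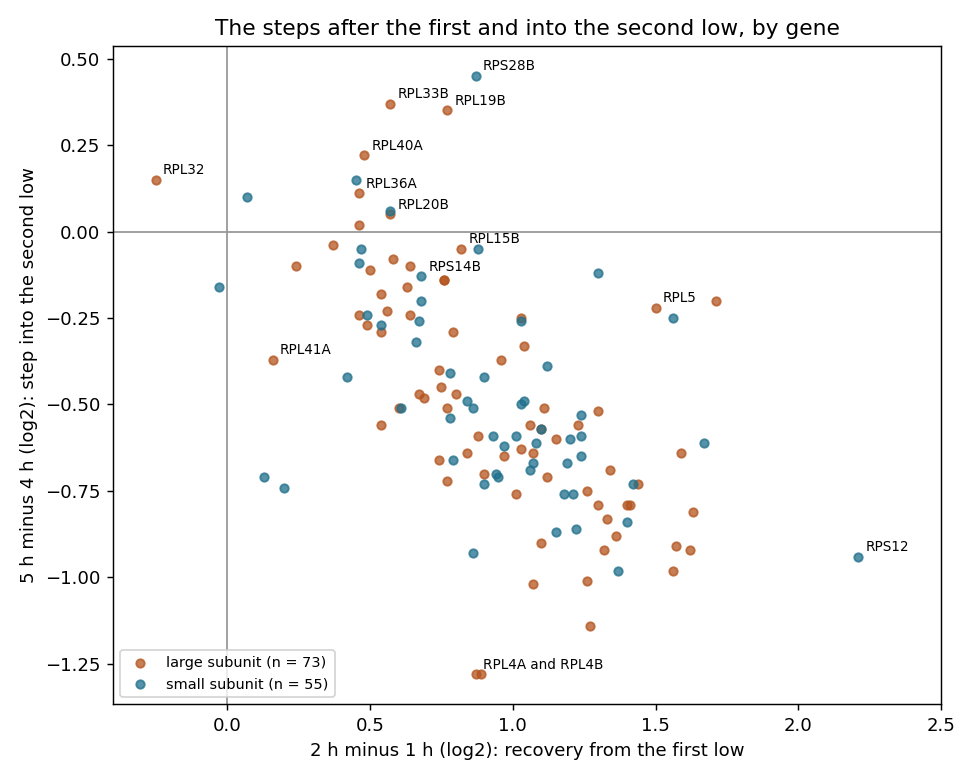
Each point is 1 ribosomal protein gene, with 2 h minus 1 h (log2) on the horizontal axis and 5 h minus 4 h (log2) on the vertical axis, coloured by subunit. The cloud runs from upper left to lower right (Pearson correlation -0.575 over 128 genes), RPS12 lies at the far right, RPL4A and RPL4B at the bottom, and RPS28B at the top.

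The 5 h low was missing from 10 genes. Its definition has no minimum size, so genes near its edge are not firmly placed. RPS13 and RPL39 counted as having the low with 5 h minus 3 h at -0.01 and -0.03. In 8 of them the 5 h value was not below the 3 h value: RPL19B, RPL20B, RPL32, RPL33B, RPL36A, RPL40A, RPS14B and RPS28B. RPL19B was at -1.85, -1.08, -0.66, -0.52, -0.17, 0.03 and 0.73 at the 7 time points, higher at each one than at the one before and above 0 h at the end. Its protein takes part in a bridge between the subunits. RPL33B was at -1.44, -0.87, -0.55, -0.81, -0.44, -0.25 and 0.30, and RPL40A at -1.28, -0.80, -0.49, -0.57, -0.35, -0.15 and 0.18. RPS28B, known in yeast for a transcript whose decay its own protein controls, was at -1.60, -0.30, -0.03 and -0.23 at 1, 3, 5 and 8 h.

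The remaining genes without the 5 h low were RPL15B, with the same value of -0.55 at 5 and 8 h, and RPL41A. RPL41A, for the smallest ribosomal protein, was at -0.90, -0.74, -0.90, -1.28, -1.65, -1.79 and -1.85. The other 127 genes were higher at 8 h than at 1 h, beside 50.0% of all genes, and RPL41A was the only one whose lowest value fell at 8 h.

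By 8 h, 9 genes stood above 0 h, beside 48.1% of all genes: RPL19B (0.73), RPL36A (0.31), RPL33B (0.30), RPL22A (0.25), RPL40A (0.18), RPS27B (0.11), RPL37B (0.08), RPL30 (0.04) and RPS26B (0.01). RPL30, whose protein is known in yeast to block splicing of its own transcript, had a deep course before that, with -2.24, -0.34 and -1.52 at 1, 3 and 5 h. RPL22A was at -1.01, -0.47, 0.18, 0.23, -0.33, -0.06 and 0.25, the highest of the 128 genes at 3 and 4 h. Its protein has been reported to be needed in yeast for translation of IME1 mRNA. The lowest values at 8 h were those of RPS3 (-1.97), RPL27A (-1.87), RPL41A (-1.85) and RPS10A (-1.83).

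The 22 genes that did not meet the rule of repression were spread over both subunits. The 12 of the large subunit included RPL15B, RPL18B, RPL22A, RPL32, RPL33A, RPL33B, RPL36A, RPL37B, RPL40A, RPL40B and RPL43A. The 10 of the small subunit were RPS9A, RPS9B, RPS13, RPS14B, RPS25B, RPS27B, RPS28A, RPS28B, RPS30A and RPS30B. Most of them passed -1 at 1 h alone, among them RPS27B, at -2.00, -0.90, -0.30 and 0.11 at 1, 2, 4 and 8 h. RPL37B, at -1.78, -0.07 and -0.57 at 1, 2 and 3 h, had a 2 h value out of line with both neighbours. With 1 time point in place of 2 the count of repressed genes was 124, and at 3-fold in place of 2-fold it was 67. The shares of all genes that meet these other rules were not counted.

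Change over the course was tested with limma's moderated F test on a quadratic curve of time, with p-values adjusted over all 5666 genes by the Benjamini-Hochberg method and a threshold of 0.05. The p-values rest on how closely the 7 columns follow such a curve, say nothing of the spread among cultures, and are too small where columns share errors. It called 17 of the 128 genes (13.3%), beside 48.5% of all genes. Of these 16 rose (23.3% of all genes were called upward) and 1 fell (25.2% of all genes were called downward). RPL19B rose most, to 0.73 at 8 h, against -1.85 at 1 h (adjusted p = 0.0036). RPS26B (adjusted p = 0.0467) and RPL26B (adjusted p = 0.0392) rose to 0.01 and -0.15 at 8 h, against -2.43 and -1.99 at 1 h. RPL20B rose to -0.15 at 8 h, against -1.94 at 1 h (adjusted p = 0.0106). RPL41A fell, to -1.85 at 8 h, against -0.90 at 1 h (adjusted p = 0.0179).

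The other genes that rose were RPL40A, RPS28B, RPL33B, RPL36A, RPL39, RPS14B, RPS13, RPL37A, RPS28A, RPL13B, RPL9A and RPL43A. Among these 17 are 7 of the 8 genes whose 5 h value was not below the 3 h value, RPL32 being the exception. Both lists come from the same 7 values, and a course without the 5 h low can lie nearer to a quadratic curve. The overlap is therefore partly built in. A curve with 1 turn cannot follow a course with lows at 1 and 5 h, and with a cubic term added the test called 124 of the 128 genes, beside 66.3% of all genes. The 4 not called were RPL32, RPL40B, RPS9B and RPS21A. The count of 17 also rested on single columns: leaving out 1 h gave 9, leaving out 2 h gave 7, leaving out 4 h gave 10, leaving out 6 h gave 7 and leaving out 8 h gave 56. Calls over all genes with a column left out were not counted.

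The large and small subunit medians had their lows at the same hours. The large subunit median was -2.20, -1.32, -0.88, -1.13, -1.63, -1.54 and -0.77 at the 7 time points, and the small subunit median was -2.43, -1.47, -1.02, -1.22, -1.79, -1.59 and -1.04. The large subunit median was the higher of the pair at all 7 time points, by between 0.05 at 6 h and 0.27 at 8 h. Genes within a subunit varied, with an SD at 1 h of 0.669 over the large and 0.664 over the small subunit genes. Repression by the rule was met by 61 of 73 large subunit genes (83.6%) and by 45 of 55 small subunit genes (81.8%). The 5 h low was present in 65 of 73 (89.0%) and 53 of 55 (96.4%). When each gene's ratio was taken to 1 h in place of 0 h, the difference between the subunit medians at 5 h was -0.03. No test of the difference between subunits was made, since genes are not replicates of a condition.

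The P-stalk, which recruits the elongation factors to the large subunit, had a lower median than the rest of that subunit. All 5 of its genes were repressed and all 5 had the 5 h low. RPP0, the base of the stalk, was at -2.95, -1.89, -1.68, -1.77, -2.33, -1.93 and -0.94. At 1, 3 and 5 h, RPP2A was at -2.92, -0.88 and -2.24 and RPP2B at -2.85, -0.95 and -2.41. At the same hours RPP1A was at -2.06, -1.32 and -2.21 and RPP1B at -2.38, -1.26 and -1.63. The median of the 5 was -2.85 at 1 h, against -2.115 for the other 68 large subunit genes. Without the P-stalk, the large subunit median was above the small subunit median by 0.315 at 1 h and by 0.235 at 5 h.

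Both copies were measured for 50 A and B pairs outside the P-stalk. The coding sequences of many pairs are nearly identical, so their separate values are uncertain, and how far the array told the copies apart was not tested. The difference of 2 copies is that of their changes since 0 h and not of their levels. Members of a pair were closer to each other than ribosomal protein genes in general: the root mean squared difference over the 7 time points had a median of 0.325 for the 50 pairs and 0.619 for all 8128 pairs of 2 of the 128 genes. RPL4A and RPL4B differed by at most 0.05, and 8 pairs stayed within 0.25 at every time point.

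The A copy was the lower of the pair in most pairs at 1 to 6 h, and in 27 of 50, with 22 higher, at 8 h. A lay below B in 32 of 50 pairs at 1 h and in 34 of 50 at 5 h, and the median of A minus B was -0.15 at 1 h and -0.12 at 5 h. A was lower at all 7 time points in 16 pairs and higher at all 7 in 5 pairs, RPL1, RPL11, RPL23 and RPS30 among them. In the large subunit A was lower in 20, 17, 21 and 17 of 27 pairs at 1, 2, 5 and 8 h. In the small subunit A was lower in 12, 15, 13 and 10 of 23 pairs at those hours. No test of this difference between subunits was made.

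Copies differed by 2-fold or more at 1 or more time points in 9 pairs. RPL20 had the largest mean difference: RPL20A was at -3.05, -1.71, -1.45, -1.82, -2.51, -2.26 and -1.34, and RPL20B at -1.94, -1.37, -0.80, -0.83, -0.78, -0.62 and -0.15. The A copy had both lows and the B copy lacked the one at 5 h, where A minus B reached -1.73. RPL19 had a like contrast, with RPL19A at -2.21, -0.80, -1.42 and -0.54 at 1, 3, 5 and 8 h, and A minus B at -0.14 at 3 h and -1.44 at 6 h. RPL16A was at -2.28 and RPL16B at -1.06 at 5 h, and RPL6A was at -2.46 and RPL6B at -1.11. For RPL21A and RPL21B the 5 h values were -2.60 and -1.44, and the 8 h values -1.72 and -0.52. RPL1 ran the other way, the A and B copies being at -1.66 and -2.60 at 1 h, with -1.13 and -2.33 at 5 h.

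In the small subunit the gaps of 2-fold or more fell at 1 h. RPS16A was at -1.89 and RPS16B at -3.24 at 1 h, and at 5 h they were at -1.11 and -1.52. RPS7A was at -2.97 and RPS7B at -1.64 at 1 h, and at -1.96 and -1.66 at 5 h. RPL37A and RPL37B were 2-fold apart at 2 h alone, at -1.20 and -0.07. The smallest mean differences belonged to RPS22 (0.01), RPL26 (0.01) and RPL42 (0.01). In these pairs the differences changed sign over the course, as in RPS22, with A minus B at -0.62 at 1 h and 0.35 at 5 h.

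The 5 h low separated copies in 7 pairs. In 6 of them A had it and B did not (RPL15, RPL19, RPL20, RPL33, RPS14 and RPS28), and in RPL40 B had it and A did not. Some of these splits rest on small margins. In RPL20B and RPS14B, 5 h minus 3 h was 0.02 and 0.06. RPL15B was lower at 5 h than at 3 h, by -0.25, and missed the low through equal values at 5 and 8 h. Both copies had it in 43 pairs, and in 0 pairs was it missing from both. In RPS14, RPS14A was at -2.16, -0.84, -1.36 and -0.40 at 1, 3, 5 and 8 h, and RPS14B was at -1.47, -0.70, -0.64 and -0.11. The Rps14 protein is known in yeast to block splicing of RPS14B transcripts. For repression the copies fell on different sides of the rule in 5 pairs (RPL15, RPL37, RPS14, RPS25 and RPS27), and in all 5 it was A that was repressed. At 1 h, A was the lower copy in RPL15, RPS14 and RPS25. In RPL37 and RPS27 B was the lower copy at 1 h, with A minus B at 0.21 and 0.61. RPL37B missed the rule with a 2 h value of -0.07, and RPL15A met it narrowly, at -1.05.

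**Figure D4:**
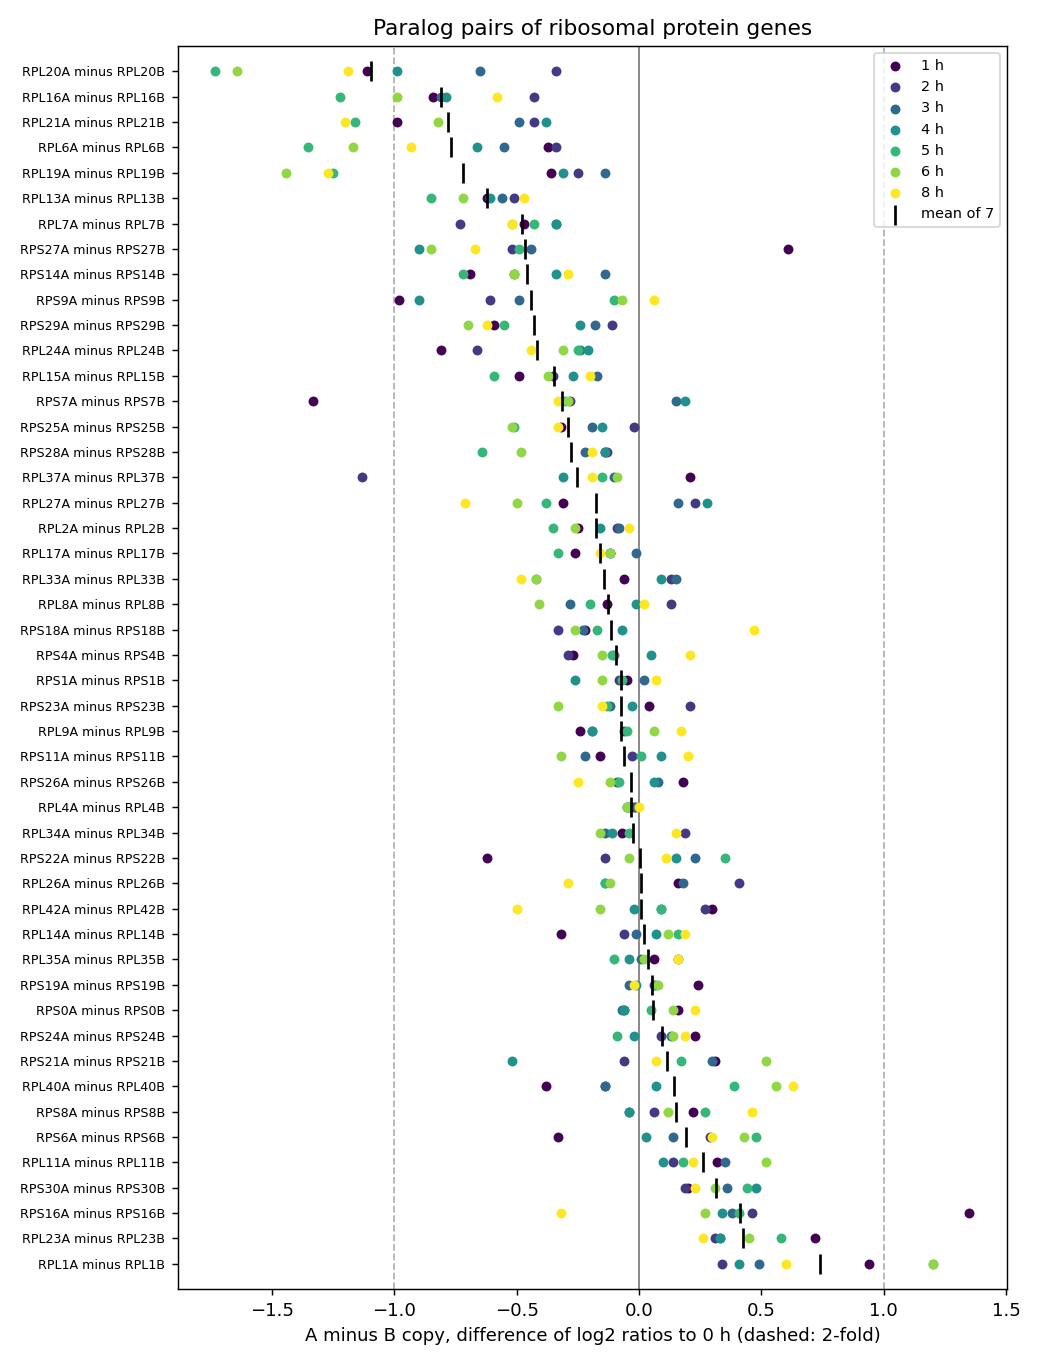
Difference of log2 ratios, A minus B copy, for 48 of the 50 paralog pairs (rows, ordered by mean), with 1 point per time point, a black bar at the mean of the 7, and dashed lines at a 2-fold difference. RPL20, RPL16, RPL21, RPL6 and RPL19 have points beyond -1 at 5, 6 or 8 h, RPL1 has points beyond 1, and RPS16 and RPS7 pass 2-fold at 1 h alone.

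Genes that act on ribosomal protein genes or beside the ribosome were described from lists by function. Counts in these lists stand beside 16.4% of all genes repressed and 21.8% induced. The trend test called 48.5% of all genes, 23.3% upward and 25.2% downward. Of 6 measured transcription factors and cofactors only HMO1, a protein bound at many ribosomal protein promoters, was repressed: it was at -0.97, -1.55, -1.92 and -1.08 at 1, 3, 5 and 8 h, and was called by the limma trend test (adjusted p = 0.0113). SFP1, a growth activator, was at -0.64, -0.05, -0.72 and -0.25 at 1, 3, 5 and 8 h, with lows at the same hours as the ribosomal protein genes and under 2-fold. RAP1, the general activator, was induced, at 0.79 at 1 h and 1.13 at 2 h, and FHL1 was at -0.26 at 1 h and 0.73 at 8 h. IFH1 was not among the 6 measured genes. REB1, a general DNA-binding factor, rose to 0.50 at 8 h, against -0.45 at 1 h (limma adjusted p = 0.02). Of the Stb3, Tod6 and Dot6 repressors and their deacetylase, the 4 measured genes were STB3, DOT6, RPD3 and SIN3, without TOD6. DOT6 was induced, at 0.42, -0.20 and 1.33 at 1, 3 and 5 h. The limma trend test called 0 of the 4 (1 at an unadjusted p under 0.05).

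Growth signalling genes stayed mostly within 2-fold of their 0 h level. Of 11 measured members of the TORC1, Sch9 and protein kinase A pathways, 1 was repressed (RAS2, -1.01 at 5 h) and 1 induced (RIM15, a kinase of the starvation response, 1.22 at 5 h). The kinase genes TOR1 and TOR2 were not among the 11. The limma trend test called 4 of the 11 (36.4%), a smaller share than the 48.5% of all genes. It called 2 upward, RAS1 (0.81 at 8 h, against 0.12 at 1 h, limma adjusted p = 0.0265) and SCH9 (1.31 against 0.41, adjusted p = 0.028). It called 2 downward, the TORC1 subunit gene LST8 (-1.29 at 8 h, against -0.52 at 1 h, adjusted p = 0.0371) and YAK1 (-0.65 against 0.52, adjusted p = 0.00727).

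Ribosome-bound proteins outside the name rule included genes with lows at 1 and 5 h. ASC1, a small subunit protein whose name does not follow the rule, was at -2.95, -1.82, -1.47, -1.97, -2.34, -2.32 and -2.04. It stayed lower at 8 h than the median of the ribosomal protein genes (-0.865). STM1, which binds idle ribosomes, was at -2.38, -1.67, -2.77 and -0.79 at 1, 3, 5 and 8 h, lower at 5 h than at 1 h. Of 8 measured genes of this list 4 were repressed (ASC1, STM1, EGD2 and EGD1). MAP1, which removes the first methionine of new proteins, rose to 2.52 at 8 h, against -0.12 at 1 h (limma adjusted p = 0.00635), and was the 1 gene of the list called. Among 11 measured chaperones of ribosomal proteins and ribosome-bound chaperones the median was -1.26, -0.15, -0.59 and -0.23 at 1, 3, 5 and 8 h, and 3 were repressed (RPF2, SSZ1 and ZUO1). SYO1, which imports Rpl5 and Rpl11, rose to 0.81 at 8 h, against -2.19 at 1 h (limma adjusted p = 0.00249), and TSR4, a chaperone of Rps2, rose to 0.72 against -0.33 (adjusted p = 0.0193).

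Among other lists of the translation apparatus, the medians of ribosome biogenesis and of the elongation factors were low at 1 h and again at 5 h. The median of 32 ribosome biogenesis genes was -1.72, -0.33, -0.71 and -0.29 at 1, 3, 5 and 8 h, so its 1 h low was deep and its 5 h low shallow. At 1 h 27 of the 32 were at -1 or less, beside 10.3% of all genes, and at 5 h 14 were, beside 15.4% of all genes. The median of 11 elongation factor genes was -0.84, -0.14, -1.13 and -0.52 at 1, 3, 5 and 8 h, lower at 5 h than at 1 h. DIA4, a mitochondrial seryl-tRNA synthetase, and RIA1, a ribosome maturation factor, were taken out of this list after its values were seen, and with them the medians of the 13 genes were -0.65 at 1 h and -1.13 at 5 h. YEF3, the fungal elongation factor, was at -2.40, -0.03 and -1.75 at 1, 3 and 5 h, while its relative HEF3 rose to 3.34 at 8 h, against 1.21 at 1 h (limma adjusted p = 0.0198). HYP2, for the elongation factor eIF5A, fell to -1.13 at 8 h, against -0.02 at 1 h (adjusted p = 0.0467).

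The median of 25 initiation factor genes ranged from -0.66 at 1 h to -0.29 at 8 h. The limma trend test called 9 of them (36%), a smaller share than the 48.5% of all genes. It called 8 upward (32%, beside 23.3% of all genes) and 1 downward (GCD6, beside 25.2% of all genes). Among the 8 were TIF11 (1.04 at 8 h, against -1.61 at 1 h, limma adjusted p = 0.00435) and PAB1 (1.65 against -0.58, adjusted p = 0.00413). The median of 21 genes of RNA polymerases I and III, their factors RRN3 and MAF1 included, was -0.74, -0.08 and -0.50 at 1, 3 and 5 h. Their lowest genes at 1 h were RPA12 (-2.92) and RPA135 (-2.66), of RNA polymerase I. The median of the 68 measured mitochondrial ribosomal protein genes had no 5 h low, at -0.945, -0.965, -0.66 and -0.60 at 1, 3, 5 and 8 h. The definition of the 5 h low was met by 10 of these 68, by 118 of the 128 cytosolic genes and by 27.3% of all genes. The low was not particular to the cytosolic genes. It was met by 27 of 32 ribosome biogenesis genes, 8 of 11 elongation factor genes and 8 of 11 chaperone genes. Of the RNA polymerase genes 13 of 21 met it, and of the initiation factor genes 10 of 25. Differences between lists were not tested.

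**Figure D5:**
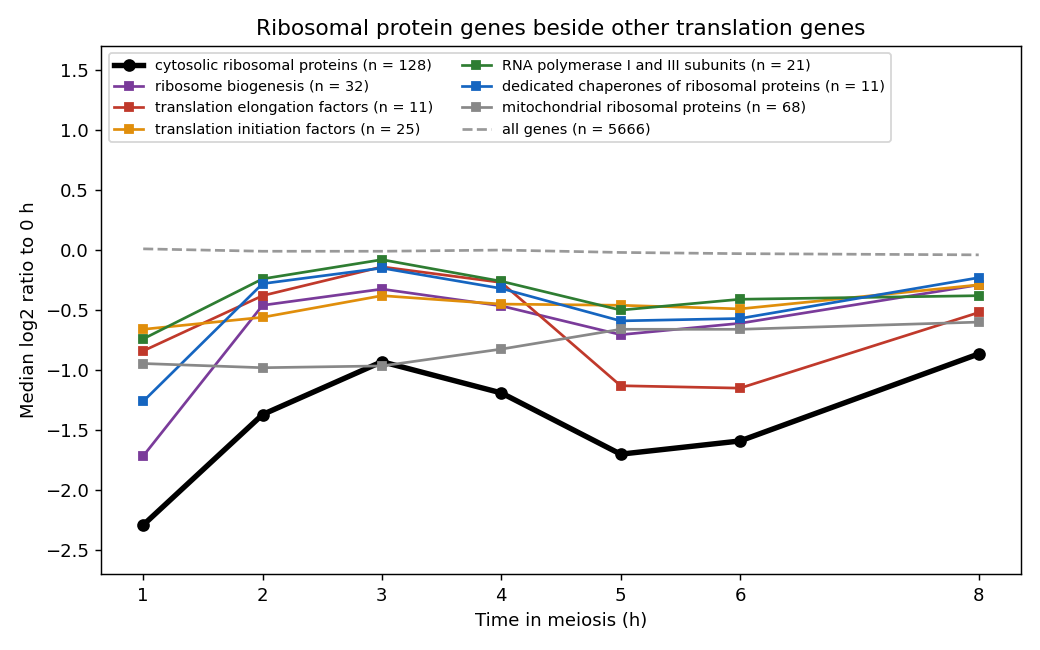
Median log2 ratio to 0 h against time for the 128 cytosolic ribosomal protein genes (black), 6 other gene lists of the translation apparatus and all 5666 genes (dashed). Ribosome biogenesis comes near the ribosomal protein genes at 1 h (-1.72 against -2.29), elongation factors dip at 5 and 6 h, and the mitochondrial ribosomal proteins lie between -0.98 and -0.60 with no dip.

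Of all other genes, those nearest to the median course of the ribosomal protein genes, by root mean squared difference over the 7 time points, were YLL044W (0.119), NCS2 (0.175), YPL197C (0.231), YDR417C (0.235) and HEM25 (0.249). YLL044W, YPL197C and YDR417C have no entry in the RefSeq gene table, and each is numbered next to a ribosomal protein gene in its systematic name (RPL8B, RPL7B and RPL12B). What part RNA of those neighbours has in these values was not tested. NCS2, of a pathway that modifies transfer RNA, was at -2.42, -0.72, -1.68 and -0.81 at 1, 3, 5 and 8 h. HEM25, a mitochondrial glycine carrier gene, was at -1.87, -0.79, -1.53 and -1.01 at the same hours.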

How the data were processed

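The authors deposited 1 table of log2 ratios with a column for each of 7 time points. Per the labels and the series design, red-dyed complementary DNA of each time point competed with a green-dyed mix of meiotic mRNA, and the ratio was divided by that at 0 h. The sources used here do not give the platform, the background correction, any centring or normalization, or how 3 cultures became 1 column. Precision is limited by how few arrays there were. The deposited log2 values were used with no further normalization. Rows took names from the RefSeq table of the R64 assembly (5655 of 6141 rows matched), and 5666 rows had values at all 7 time points. The trend test used limma 3.58.1 in R 4.3.3, with 4 residual and 2.354 prior degrees of freedom, and was tested on simulated data. The simulation held independent noise and straight-line changes only. It therefore cannot show how the test behaves with errors shared by columns or with lows at 1 and 5 h. Other values were computed in Python 3.11.15 with pandas 2.3.3. The ribosomal protein genes, the lists, the tests and the alternatives were chosen with earlier results of these data known. Genes named by rule are the 4 lowest and 4 highest of each subunit at 1 and 5 h, the genes outside the rule of repression, those called by the trend test, the pairs with the 6 largest and 3 smallest mean differences, the P-stalk, and the 5 nearest other genes. Others were chosen after their values were seen. A few genes that meet the naming rule are counted but not reported here by name.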

Additional observations from a re-analysis of the deposited data

How the results depend on the processing

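Results were recomputed with column medians subtracted, columns scaled to one spread, other thresholds, the ratio to 1 h, the mean of each pair, the P-stalk left out and each time point left out. A value with no test was taken as moved when it changed by 0.25 or more, and a count when it changed by more than 1.5 times. Of the alternatives 55 values did not move, 17 moved and 3 changed sign. The 55 do not measure stability. Differences that start under 0.25, as between subunits or copies, can vanish without counting as moved. The subunit difference at 5 h, 0.16 as deposited and -0.03 with the ratio to 1 h, is 1 of the 55. Others cannot change, such as the pairs with A lower under column scaling, or the 5 h low with the ratio to 1 h. With columns scaled to one spread the median was -3.12 at 1 h and -1.33 at 5 h, and 5 h minus 1 h was 1.85. At 3-fold 67 genes were repressed. With the ratio taken to 1 h, 0 genes were repressed and 0 were at -1 or less at 5 h, and the medians at 3, 5 and 8 h turned to 1.34, 0.64 and 1.385, because the 1 h low itself became the zero. With 1 value per pair 78 members were left by construction, of which 64 were repressed, 74 were at -1 or less at 1 h, 62 at 5 h, 74 had the 5 h low and 9 were called by the limma trend test. Leaving out each time point gave between 94 and 106 repressed genes and between 7 and 56 trend calls, and a cubic term gave 124. Where no share over all genes is given here or above for a setting, none was counted. The alternative that leaves out genes with a protein identical to that of the paralog was not run, as no protein sequences were used here. No paired analysis was possible because each time point is 1 column. Signal over background was not analysed here, so which low values lie near the array's floor was not tested.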

Other observations

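Ribosomal protein genes form 10 adjacent pairs, by the order of the RefSeq R64 table, at 8 places of the genome, 2 of them runs of 3 genes. RPL24A and RPL30, which are transcribed away from each other from a shared stretch, differed at every time point, with 1 h values of -3.30 for RPL24A and -2.24 for RPL30, and 8 h values of -1.54 and 0.04. RPS22A and RPL39, arranged in the same way, had 1 h values of -2.90 and -1.99 and 5 h values of -2.47 and -0.85. For RPL13B and RPS16A, a divergent pair as well, RPL13B minus RPS16A was 0.27, 0.05, -0.05, 0.12, 0.43, 0.52 and 0.74 at the 7 time points. The largest contrast was between the tandem genes RPS9B and RPL21A, with 1 h values of -0.34 and -3.07 and 5 h values of -0.67 and -2.60.

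RPL20B, which lacked the 5 h low of its paralog, lies directly downstream of SPS4 on the same strand. SPS4, a sporulation gene, was at 1.07, 5.44 and 10.29 at 3, 4 and 5 h. RPL2A and RPL26A lie in the same way downstream of strongly induced genes, RRT5 (7.85 at 5 h) and GAS2 (7.15 at 5 h), and both had the 5 h low, with 5 h minus 3 h at -1.15 and -0.60. Of 46 ribosomal protein genes with a measured upstream neighbour on the same strand, 10 had a neighbour at least 2-fold higher at 5 h than at 3 h, and 2 of these 10 (RPL20B and RPL36A) lacked the 5 h low, as did 3 of the other 36. This comparison was chosen after the values were seen, and the part of the neighbour in the value of RPL20B was not tested.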
